A study of Mus musculus with 35 samples.

Results

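The genes described here encode 10 factors that hold or release paused RNA polymerase II: Nelfa, Nelfb, Nelfcd and Nelfe of the negative elongation factor NELF, Supt4a and Supt5 of DSIF, Cdk9, Ccnt1 and Ccnt2 of P-TEFb, and Hexim1, which inhibits P-TEFb. They were chosen by name, and all 10 were found among the 24421 genes of the count files. RNA-seq of poly(A) RNA was done in 35 libraries of immortalized mouse embryonic fibroblasts (MEFs) labelled as carrying 1 null and 1 floxed allele of Nelfb (Nelfb flox/-); the clones were isolated after Cre and are described in the study as Nelfb-/-. The cells stably expressed an ectopic mouse NELFB or an empty vector (EV), and the study asked which responses to the loss of endogenous NELFB the ectopic proteins prevent.

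In the 20 population libraries, cells with EV, WT, MT194, MT486 or DMT (both MT194 and MT486) in a pLenti vector were infected with Ad-Cre-GFP, which deletes the floxed allele, or with Ad-GFP, and RNA was taken after 7 days. These 10 groups, named EV-Cre, EV-GFP and so on, had 2 biological replicates each and were pools of infected cells. The other 15 libraries came from single clones isolated after Ad-Cre, with 3 clones each of WT, MT194 and MT486 in pLenti and of WT(N48) and Δ-C60 in pBabe; no clone group carried EV or received Ad-GFP. The pLenti inserts were driven by a CMV promoter and not by that of the Nelfb gene. Reads on genes numbered 17969149 to 29080007 per population library and 18413284 to 27816723 per clone.

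The labelled cell type was checked against marker genes. Of 12 fibroblast markers, 11 had a median over 10 CPM, a library's reads on a gene scaled to a common total of reads in the populations and in the clones, led by Fn1, while Thy1 had a median of 0 in both sets. The summed level of the 12 markers ran from 21628 to 46003 CPM in the populations and from 8077 to 27148 CPM in the clones. Epithelial, endothelial, muscle and pluripotency markers were near 0: the highest sums in any population were 1.29, 1.25, 0.806 and 0.797 CPM. In the clones the highest sums of these 4 lists were 2.07, 5.03, 13.6 and 1.65 CPM, the third of them mostly Myod1 at 13.1 CPM in 1 clone. Hematopoietic markers summed to at most 9.73 CPM, mostly Cd68, with Ptprc at no more than 0.12 CPM. Of the neural markers Nes was the most abundant, at a median of 85.7 CPM in the populations and 240 CPM in the clones. Map2 and Tubb3 had medians of 4.29 and 3.90 CPM in the populations and 23.6 and 20.8 CPM in the clones, reaching 144 and 52.1 CPM, and Sox10 had a median of 0 in both sets; their part in the results was not tested.

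Soon after a polymerase starts a gene, DSIF and NELF bind it and hold it near the promoter. P-TEFb, the kinase Cdk9 with the cyclin T1 or T2 encoded by Ccnt1 and Ccnt2, phosphorylates NELF, DSIF and the polymerase, after which NELF leaves and DSIF travels with the elongating enzyme. Much P-TEFb is held inactive in the 7SK small nuclear ribonucleoprotein by Hexim1, whose own transcription is known to respond to P-TEFb activity. The 4 NELF subunits form 1 complex in which NELFB joins NELFA and NELFC to NELFE.

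The mutant groups differ in a few codons of NELFB, and the stretch that each mutagenesis primer covers is shown with the exchanged codons in capitals, the wild-type line being the same stretch of the GENCODE coding sequence on the strand of the mRNA. In MT194, 5 bases in 3 codons of exon 4, at chr2:25210010-25210018 of GRCm38 on the minus strand, were exchanged. GENCODE starts the reading frame at a codon other than ATG and counts the first of them as codon 196.
MT194 wild type: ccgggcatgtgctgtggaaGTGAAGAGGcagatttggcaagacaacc
MT194 mutant: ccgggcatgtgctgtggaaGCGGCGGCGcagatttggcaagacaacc
In MT486, 6 bases in 3 codons of exon 10, at chr2:25203169-25203177, were exchanged, with codon 488 of GENCODE as the first.
MT486 wild type: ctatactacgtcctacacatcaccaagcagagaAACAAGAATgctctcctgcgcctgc
MT486 mutant: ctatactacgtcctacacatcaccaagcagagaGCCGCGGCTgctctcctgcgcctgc
DMT carries both. By its reverse primer, Δ-C60 ends after codon 571 of 631 and so lacks the last 60 codons. The count of Nelfb reads adds what the floxed allele and the ectopic cDNA make, wild type or mutant, and cannot tell them apart; likewise fewer cells with a transcript and less transcript per cell cannot be told apart in these bulk libraries.

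Scaled to the length of all annotated exons, the 10 genes spanned a wide range in the populations. Supt5, the large subunit of DSIF, was the most abundant at a mean of 41.0 CPM per kb over the 20 libraries, and its partner Supt4a stood at 12.5 CPM per kb. Among the NELF genes, Nelfb was at 24.8, Nelfe at 15.6, Nelfcd at 11.7 and Nelfa at 9.39 CPM per kb. The Nelfb mean pools groups whose means differ 28.1-fold, with 54.9 CPM per kb in DMT-Cre as the highest, and includes the ectopic cDNA; in EV-GFP it was 12.5 ± 1.35 CPM per kb (SD, n = 2), with Nelfe at 15.1 ± 3.12. Hexim1 was at 19.7 CPM per kb and Cdk9 at 13.8, whereas the cyclin genes were the lowest, Ccnt2 at 5.03 and Ccnt1 at 2.70 CPM per kb. In the clones Nelfb averaged 43.9 CPM per kb, pooled over groups from 13.1 in the libraries labelled WT to 65.4 in Δ-C60, Supt5 was at 35.9, and Ccnt1 at 3.67 and Ccnt2 at 2.68 were again the lowest. With the longest transcript as the length, Supt5 at 55.1 and Nelfb at 54.7 CPM per kb changed places in the clones, and in the populations Supt5 moved to 62.9, Nelfa to 14.4 and Ccnt2 to 8.12. The lowest read count of any of the 10 genes in any library was 116, for Nelfb in EV-Cre, so all 10 passed the filter on low counts. Supt4b, a near-identical copy of Supt4a, was not analysed here. Reads that fit both copies equally may have been dropped by the mapping quality minimum of 30, so the level of Supt4a may be too low.

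Nelfb, the gene that Ad-Cre deletes, was examined first. In EV cells it stood at 46.1 and 39.5 CPM with Ad-GFP and at 7.97 and 5.46 CPM with Ad-Cre, so that 17.3% and 13.8% of its level was left in replicates 1 and 2. The groups did not overlap, and the fall was 2.67 on the log2 scale with a standard error of 0.22 (edgeR quasi-likelihood F test, Benjamini-Hochberg adjusted over 13805 genes, adjusted p = 2.53e-05). The remaining reads may lie on parts of the gene outside the floxed segment, which the gene-level counts cannot show.

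With an ectopic construct, Nelfb stood above EV under both viruses. With Ad-GFP, WT cells had 97.5 and 82.8 CPM, MT194 cells 74.0 and 62.1, MT486 cells 92.9 and 78.6, and DMT cells 73.5 and 61.6. Every one of these 8 libraries was above both EV-GFP libraries. The log2 differences from EV-GFP were 1.07 for WT, 0.67 for MT194, 1.00 for MT486 and 0.66 for DMT, and none passed the test (edgeR adjusted p = 1, 1, 0.322 and 1). In these 4 comparisons edgeR passed none of the 10 genes and 1 gene, Nelfb, had an unadjusted p under 0.05 in each. DESeq2 passed Nelfb for WT (adjusted p = 0.0039) and MT486 (adjusted p = 0.00356) alone, and a fit with a term for the replicate number passed it for MT486 (adjusted p = 0.0142). Few genes of any kind were called: 0% of all genes for WT, MT194 and DMT and 0.00724% for MT486, or 0.159% with the replicate term. At an unadjusted p under 0.05, 84, 276, 252 and 175 genes were found for WT, MT194, MT486 and DMT, and DESeq2 called 1, 5, 10 and 3.

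With Ad-Cre, Nelfb stood at 75.9 and 60.5 CPM in WT, 104 and 119 in MT194, 116 and 128 in MT486, and 169 and 208 in DMT. In order of their means the groups with Ad-Cre ran from EV at 6.72 ± 1.78 CPM (SD, n = 2) through WT at 68.2 ± 10.8, MT194 at 111 ± 10.4 and MT486 at 122 ± 8.40 to DMT at 188 ± 28.1, and only MT194 and MT486 had overlapping libraries. All 4 constructs passed against EV-Cre, by 3.34 (standard error 0.22, adjusted p = 1.11e-05), 4.05 (0.23, 2.33e-06), 4.18 (0.23, 1.66e-06) and 4.81 (0.23, 4.02e-07) on the log2 scale in that order. Each call held in all 4 fits that left out 1 library. With the spread taken from the compared groups alone, Nelfb passed in WT (adjusted p = 0.00573) and MT486 (0.0351) and lost the call in MT194 (4.05, adjusted p = 0.0642) and DMT (4.82, adjusted p = 0.0571). In the fit over all populations without a replicate term, Nelfb was the only gene of the 10 to pass in MT194, MT486 and DMT, where 0.225%, 0.362% and 0.00724% of all genes were called; in DMT it was the single gene called of 13805.

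**Figure D1:**
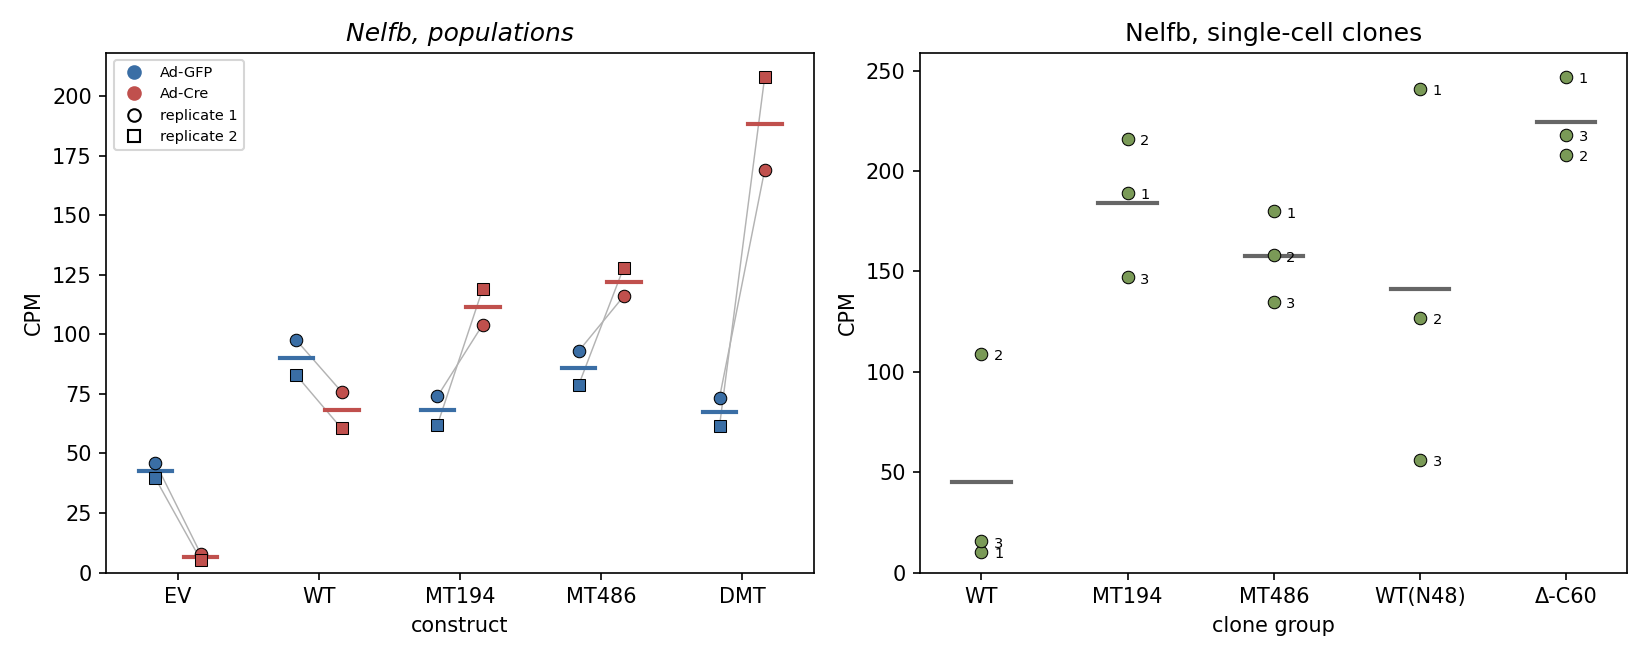
Nelfb level in CPM in every library, on the left by construct in the populations (blue Ad-GFP, red Ad-Cre, grey lines joining libraries of the same replicate number) and on the right in the clones, numbered by replicate, with bars for group means. EV-Cre libraries lie at 7.97 and 5.46 CPM, DMT-Cre libraries are the highest populations at 169 and 208 CPM, and the libraries labelled WT clones 1 and 3 lie at 10.3 and 15.5 CPM.

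The response of Nelfb to Ad-Cre therefore went in different directions. It fell in EV, was lower in both pairs of WT libraries by a log2 difference of -0.40 that did not pass (adjusted p = 0.822), and was higher with Ad-Cre in both pairs of the 3 mutants. In DMT the rise was 1.48 in log2 units (standard error 0.20, adjusted p = 0.000555). In MT194 the difference was 0.71 (0.20, adjusted p = 0.0637) and in MT486 0.51 (0.20, adjusted p = 0.234), and both passed with the replicate term (adjusted p = 0.00303 and 0.0238), MT194 also with DESeq2. Tested directly as a difference of Cre effects from EV, WT differed by 2.27 (standard error 0.29, adjusted p = 0.00574), MT194 by 3.38 (adjusted p = 0.000449), MT486 by 3.18 (adjusted p = 0.00089) and DMT by 4.15 (adjusted p = 4.26e-05). With the spread taken from the compared groups alone, DMT kept the call (4.15, adjusted p = 0.0421), and WT (2.27, adjusted p = 0.0679), MT194 (3.38, 0.172) and MT486 (3.17, 0.247) lost it. No other gene of the 10 passed these tests in the fit without a replicate term, in which 0.681%, 0.00724%, 0.00724% and 0.00724% of all genes were called. A positive difference for Nelfb was set by the design, as Ad-Cre deletes the floxed allele and not the ectopic cDNA counted with it.

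As a description of the ectopic part, the EV library of the same virus and replicate number was subtracted. For WT the excess was 51.4 and 43.2 CPM with Ad-GFP and 67.9 and 55.1 with Ad-Cre, a ratio of 1.32 and 1.27. For MT486 it went from 46.8 and 39.0 to 108 and 122 CPM, a ratio of 2.31 and 3.14. MT194 went from 27.9 and 22.6 to 95.9 and 113 CPM, a ratio of 3.44 and 5.0, and DMT from 27.4 and 22.1 to 161 and 203 CPM, a ratio of 5.86 and 9.18. The excess was thus above that with Ad-GFP in all 8 pairs and by more in the mutants than in WT in both replicates. These ratios were not tested, and whether cells with more of the construct became more frequent or each cell made more of it cannot be told apart.

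The other NELF genes moved little. Nelfa, Nelfcd and Nelfe, the partners of NELFB, had log2 changes of -0.13 (standard error 0.20), 0.13 (0.15) and -0.25 (0.24) with Ad-Cre in EV. None passed (adjusted p = 0.748, 0.639 and 0.571), beside 13.0% of all genes. With 1 library left out, the changes ran from -0.30 to 0.02, from 0.08 to 0.18 and from -0.44 to -0.02. Nelfcd was at 35.0 and 32.8 CPM in EV-Cre against 32.1 and 29.9 in EV-GFP. Averaged over the 5 constructs, Nelfcd was the only one of the 3 to pass, beside 34.3% of all genes, or 61.0% with the replicate term. Its rise was 0.22 (standard error 0.06, adjusted p = 0.0203), and it was higher with Ad-Cre in 9 of 10 pairs. That call was lost without WT-GFP replicate 2 (0.19, adjusted p = 0.0502) and held in the other 19 fits that left out 1 library. Nelfa and Nelfe were higher with Ad-Cre in 6 and 4 of 10 pairs, with mean effects of 0.02 and -0.10. Set against the mean of these 3 partners per kb, Nelfb was at 1.06 ± 0.0301 (SD, n = 2) in EV-GFP, 0.176 ± 0.0279 in EV-Cre, 1.49 ± 0.173 in WT-Cre and 4.70 ± 1.31 in DMT-Cre. All Nelfb reads were divided by the 3432 bp of annotated exons, while the ectopic cDNA may be shorter, with 631 coding codons. The ratios of EV and of the constructs are therefore not strictly comparable, and those of the constructs may be too low.

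In the populations the DSIF genes had the smallest ratios of highest to lowest group mean. Supt5 lay between 221 and 254 CPM in all 20 populations, and its highest group mean was 1.11 times the lowest. Supt4a, the small zinc-binding subunit, lay between 9.62 and 14.0 CPM, with a ratio of 1.16. Neither passed in any comparison of groups, and the log2 effects of Ad-Cre in EV were 0.11 (standard error 0.12) for Supt5 and -0.16 (0.21) for Supt4a. Approximate 95% intervals of these effects ran from -0.12 to 0.34 and from -0.57 to 0.25.

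Of the P-TEFb genes, Cdk9 and Ccnt1 were higher with Ad-Cre in EV. The direction was not particular to EV, as Cdk9 was higher in 10 of 10 pairs over the 5 constructs and Ccnt1 in 9 of 10. The Cdk9 pairs rose by 0.55 and 0.68 in EV, by 0.40 and 0.55 in DMT and by 0.12 and 0.10 in WT. Cdk9, the kinase, stood at 86.0 and 76.5 CPM in EV-Cre and at 58.6 and 47.9 in EV-GFP. Ccnt1, the cyclin T1 gene, stood at 29.5 and 35.3 CPM in EV-Cre and at 21.3 and 22.9 in EV-GFP. In both genes every EV-Cre library was above every EV-GFP library, and the rises were 0.61 (standard error 0.16, adjusted p = 0.0239) and 0.55 (0.13, adjusted p = 0.0171) on the log2 scale. With Nelfb, 3 of the 10 genes passed in EV, where 13.0% of all genes were called. The replicate term gave 5, adding Ccnt2 with 0.33 (standard error 0.11, adjusted p = 0.0239) and Hexim1 with -0.34 (0.11, adjusted p = 0.024), against a background of 43.0%.

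The EV calls for Cdk9 and Ccnt1 were close to the threshold. Cdk9 lost its call without EV-Cre replicate 1 (0.52, adjusted p = 0.127), without EV-Cre replicate 2 (0.69, adjusted p = 0.0603) and without EV-GFP replicate 2 (0.47, adjusted p = 0.186). Ccnt1 lost it without EV-Cre replicate 2 (0.42, adjusted p = 0.161), without EV-GFP replicate 1 (0.50, adjusted p = 0.11) and without EV-GFP replicate 2 (0.60, adjusted p = 0.0656). These fits leave 1 group with a single library, whose spread was taken from the rest of the populations. In the compared groups alone Cdk9 (0.62, adjusted p = 0.196) and Ccnt1 (0.56, adjusted p = 0.237) both lost the call, and without a filter on low counts Cdk9 did (0.60, adjusted p = 0.0553). Ccnt2, which the replicate term had added in EV, did not pass with DESeq2, fitted without that term (0.30, adjusted p = 0.692). Its edgeR difference without the term was -0.04 once EV-GFP replicate 1 was left out. That fit set both EV-Cre libraries against EV-GFP replicate 2 alone, and Ccnt2 was higher in replicate 2 in all 10 groups. Within same-numbered pairs its log2 change in EV was 0.48 and 0.19.

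Hexim1, the inhibitor, went the other way. Its level with Ad-GFP and then Ad-Cre was 83.0 and 65.8 CPM in replicate 1 and 72.8 and 57.6 in replicate 2 of EV, and 79.1 and 70.5 and then 75.9 and 71.4 CPM in WT. In MT194 it was 92.3 and 51.8 CPM in replicate 1 and 73.7 and 59.5 in replicate 2. In DMT it was 89.9 and 53.4 CPM and then 70.6 and 55.7 CPM, and in MT486 77.3 and 60.6 CPM and then 61.3 and 54.6 CPM. The Ad-Cre library was the lower one in all 10 pairs.

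In the fit without a replicate term the fall passed in DMT (-0.56, standard error 0.16, adjusted p = 0.0443) and in no other construct. With the replicate term, which pairs the populations, Hexim1 also passed in EV (-0.34, adjusted p = 0.024) and MT194 (-0.57, adjusted p = 0.00135), and DESeq2 passed it in MT194 (adjusted p = 0.0257) as well as DMT (0.0155). In DMT, without the term, Hexim1 and Nelfb were the 2 genes to pass of 10, beside 10.8% of all genes. The Hexim1 call was lost without any 1 of the DMT-Cre or DMT-GFP libraries, which leaves 1 group with a single library. The difference then ran from -0.72 to -0.37. It was about as large where the call was lost in the compared groups alone (-0.55, adjusted p = 0.202) and without a filter on low counts (-0.55, adjusted p = 0.0915). With the replicate term Hexim1 passed with -0.55 (adjusted p = 0.000992), and Nelfcd with 0.29 (adjusted p = 0.0392) and Cdk9 with 0.48 (adjusted p = 0.000272) were added, making 4 of 10 beside 40.7% of all genes.

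Without the replicate term no gene of the 10 passed in WT, MT194 or MT486, where edgeR called 0.0217%, 4.49% and 2.54% of all genes. An unadjusted p under 0.05 was found for 0, 2 and 1 of the 10, beside 859, 2267 and 2002 of 13805 genes. DESeq2 passed 0, 2 and 0 of the 10, beside 78, 1128 and 876. The 2 in MT194 were Nelfb and Hexim1, the latter at -0.58 (standard error 0.16) with an adjusted p of 0.0661 by edgeR. In the fit with that term MT194 had 3 genes, namely Nelfb, Cdk9 (0.29, adjusted p = 0.0187) and Hexim1, beside 26.7% of all genes. MT486 had Nelfb and Cdk9 (0.31, adjusted p = 0.0161) beside 23.2%, and WT had none beside 5.61%. Without the term, the Cdk9 effect in MT486 ran from 0.10 to 0.54 with 1 library left out.

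**Figure D2:**
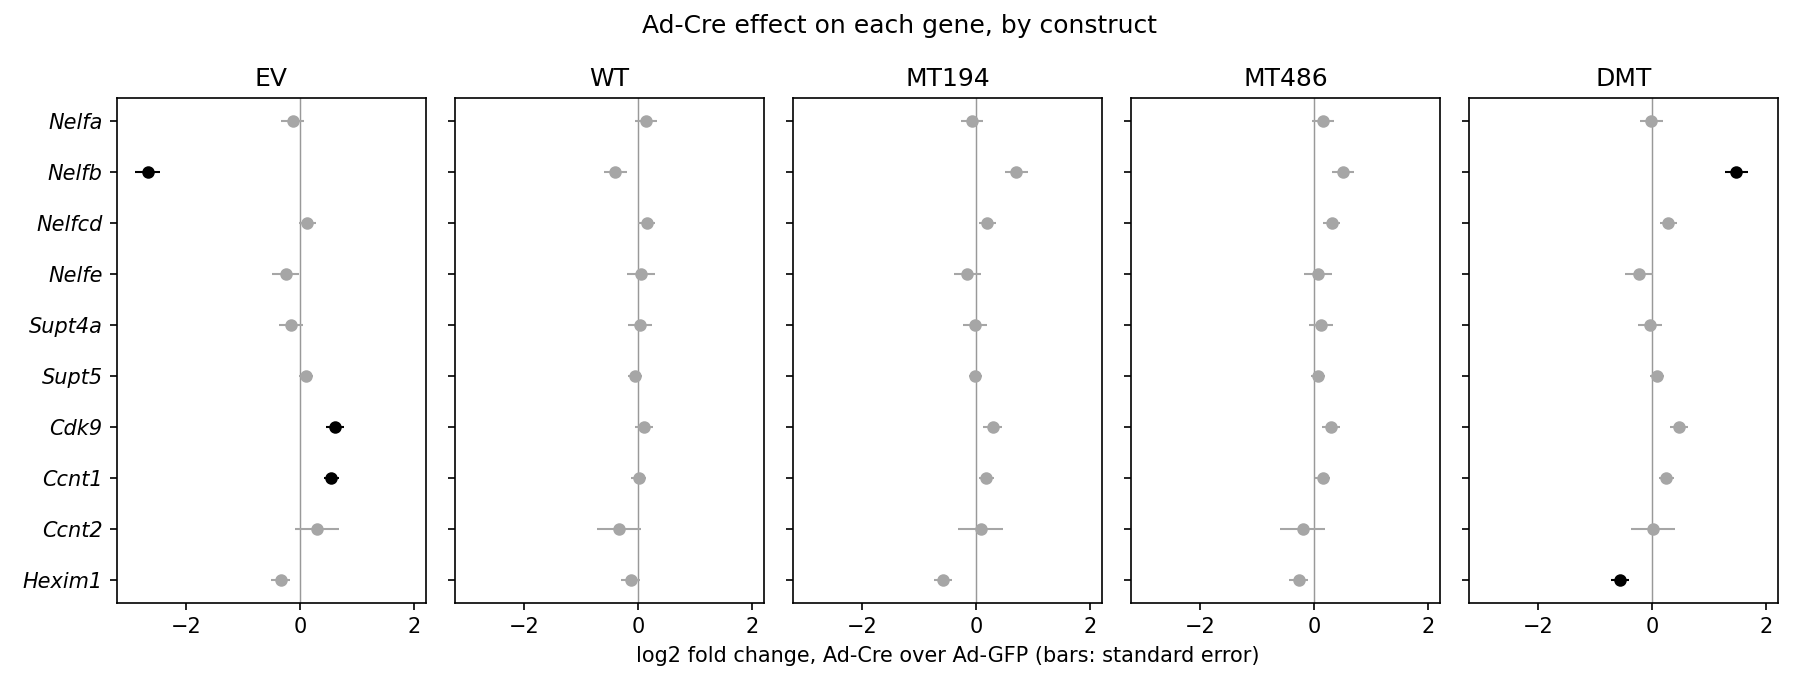
Log2 fold change of Ad-Cre over Ad-GFP for each of the 10 genes in the 5 constructs, with standard errors, in black where the edgeR adjusted p was under 0.05 and in grey otherwise. Nelfb, Cdk9 and Ccnt1 are black in EV, Nelfb and Hexim1 in DMT, and none in WT, MT194 and MT486.

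Averaged over the 5 constructs, 4 of the 10 genes passed, beside 34.3% of all genes, or 61.0% with the replicate term, which passed the same 4. Cdk9 rose by 0.36 (standard error 0.07, adjusted p = 0.00175) and Ccnt1 by 0.23 (0.06, adjusted p = 0.00986), while Hexim1 fell by 0.37 in log2 units (0.07, adjusted p = 0.00147); Nelfcd was the fourth. Cdk9 was higher with Ad-Cre in 10 of 10 pairs, by 0.10 to 0.68, and Ccnt1 in 9 of 10. The calls for Cdk9, Ccnt1 and Hexim1 held in all 20 fits that left out 1 library. Ccnt2, the cyclin T2 gene, was higher in 4 of 10 pairs, with a mean effect of -0.03 (standard error 0.17).

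**Figure D3:**
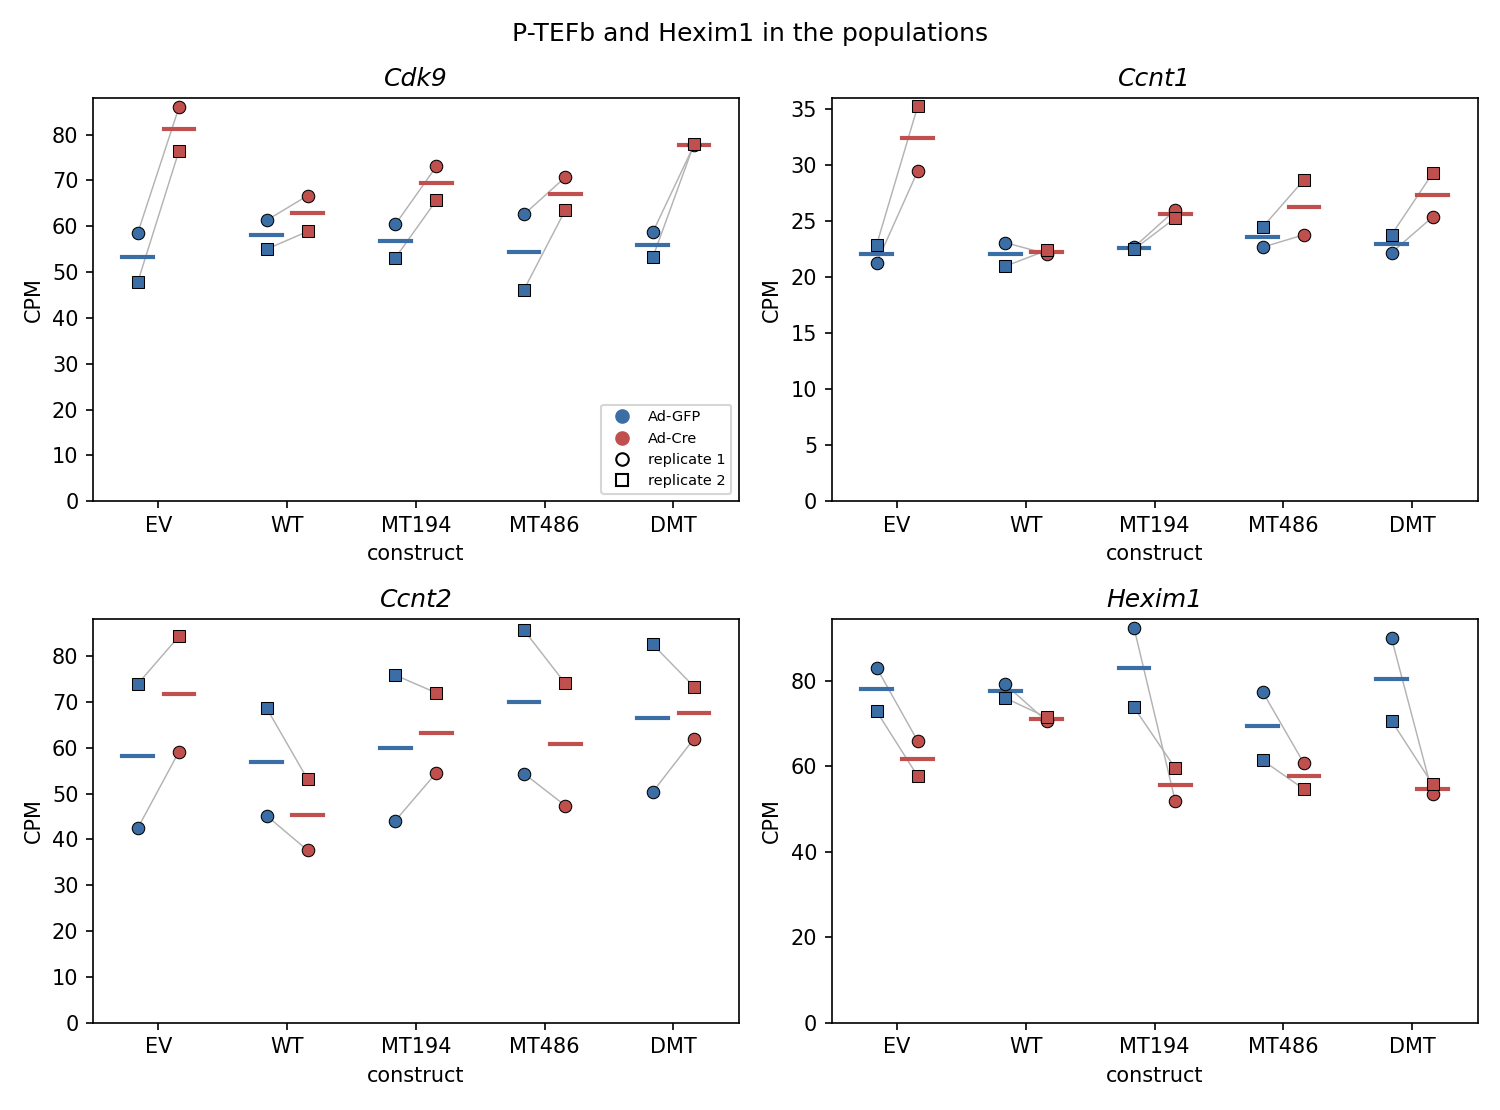
Levels of Cdk9, Ccnt1, Ccnt2 and Hexim1 in CPM in the 20 populations, with blue for Ad-GFP, red for Ad-Cre, bars for means and grey lines joining libraries of the same replicate number. All 10 lines rise for Cdk9 and fall for Hexim1, and the lines of Ccnt2 separate by replicate number more than by virus.

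Because the kinase gene and the inhibitor gene moved in opposite directions, their ratio separated the viruses. Hexim1 over Cdk9, each per kb, was 1.63 to 2.02 in the 10 Ad-GFP libraries (median 1.82) and 0.907 to 1.60 in the 10 Ad-Cre libraries (median 1.07). By group the ratio with Ad-Cre was 1.00 ± 0.0109 (SD, n = 2) in EV, 0.925 ± 0.0259 in DMT, 1.07 ± 0.184 in MT194, 1.13 ± 0.00255 in MT486 and 1.5 ± 0.146 in WT. WT-Cre was the highest of these, and its libraries at 1.39 and 1.60 were above all 8 other Ad-Cre libraries. The ratio is a description of the 2 genes' levels and was not tested. Its size depends on the length chosen: Cdk9 has 4611 bp of annotated exons and a longest transcript of 3565 bp, and Hexim1 3495 bp by both. With the longest transcript every ratio is lower by the same factor, so the order of the libraries stays but the absolute values do not show parity.

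**Figure D4:**
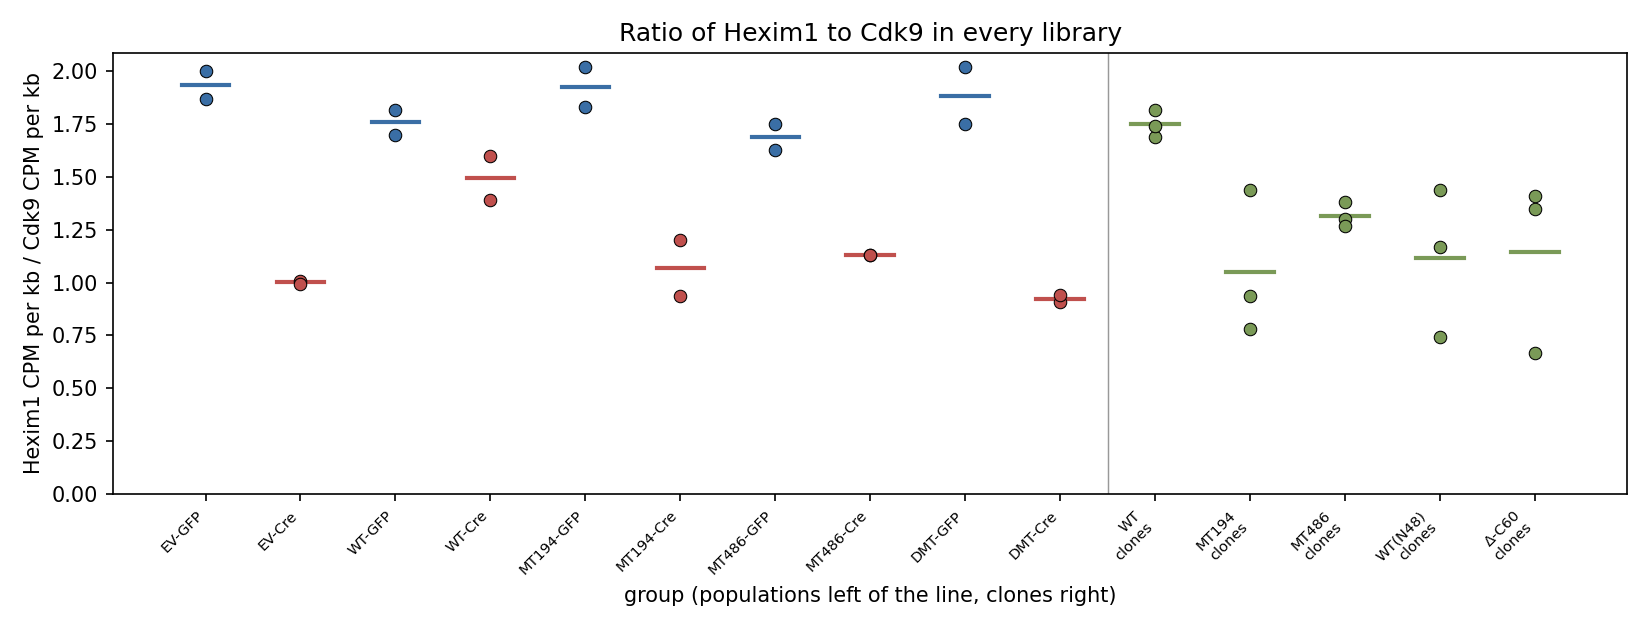
Ratio of Hexim1 to Cdk9, both in CPM per kb of exon, in every library, with bars for group means (blue Ad-GFP populations, red Ad-Cre populations, green clones). Ad-GFP populations lie at 1.63 to 2.02 and Ad-Cre populations at 0.907 to 1.60, and the 3 libraries labelled WT clones, of which 1 and 3 had low Nelfb, lie above the other 12 clones.

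Whether WT NELFB lowered these genes after Cre was asked by comparing WT-Cre with EV-Cre, which shares the EV-Cre libraries with the comparison in EV. Ccnt1 was at 22.1 and 22.4 CPM in WT-Cre and fell by 0.54 in log2 units (standard error 0.13, adjusted p = 0.0277). Cdk9, at 66.7 and 58.9 CPM, differed by -0.37 (0.16, adjusted p = 0.177). With Nelfb, 2 of 10 genes passed beside 8.00% of all genes. The Ccnt1 call was lost without EV-Cre replicate 2, WT-Cre replicate 1 or WT-Cre replicate 2. With 1 library left out, the Ccnt1 difference ran from -0.67 to -0.41. It was about as large where the call was lost in the compared groups alone (-0.54, adjusted p = 0.142) and without a filter on low counts (-0.53, adjusted p = 0.0691). The replicate term gave 6 of 10 beside 40.1%: Nelfb, Nelfa (0.31, adjusted p = 0.0127) and Nelfe (0.42, adjusted p = 0.00335) were higher, and Cdk9 (-0.37, adjusted p = 0.0025), Ccnt1 (-0.54, adjusted p = 0.00064) and Ccnt2 (-0.66, adjusted p = 0.000195) lower.

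The response to Cre in WT less that in EV was -0.50 (standard error 0.23) for Cdk9, -0.54 (0.19) for Ccnt1 and -0.63 (0.55) for Ccnt2, and did not pass (adjusted p = 0.408, 0.259 and 0.77). With the replicate term these 3 passed (adjusted p = 0.0097, 0.0202 and 0.0099), so that 4 of 10 genes passed beside 17.3% of all genes. For Hexim1 the difference was 0.21 (0.23, adjusted p = 0.843).

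For MT194 against EV with Ad-Cre, Ccnt1 differed by -0.34 (standard error 0.13, adjusted p = 0.415), and for MT486 by -0.30 (0.13, adjusted p = 0.377). With the replicate term Ccnt1 passed for MT194 (adjusted p = 0.0419), making 2 of 10 beside 13.1%. For MT486, Nelfe (0.39, adjusted p = 0.0167), Cdk9 (-0.28, adjusted p = 0.0343) and Ccnt1 (adjusted p = 0.0496) were added, making 4 of 10 beside 17.9%. In DMT neither fit passed another gene, beside 0.00724% of all genes, or 0.413% with the replicate term. There Cdk9 differed from EV-Cre by -0.06 (0.16), with an approximate 95% interval from -0.37 to 0.25.

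In the mean effect of Ad-Cre over the 5 constructs Hexim1 was the only gene of the 10 to pass with a fall, and the part of its RefSeq promoter that no GENCODE exon covers is printed to place it. It spans chr11:103116075-103116230 of GRCm38.p6 on the plus strand, the first 156 of the 250 bases before the RefSeq start, and motif matches on either strand are in capitals.
Hexim1: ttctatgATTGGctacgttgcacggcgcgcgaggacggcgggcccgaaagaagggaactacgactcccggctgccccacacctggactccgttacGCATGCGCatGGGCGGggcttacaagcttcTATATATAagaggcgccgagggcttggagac
The words searched for, on both strands of the 250 bases before the start of 32851 promoters, were the TATA box TATAAA (in 12.4% of promoters), the alternating form TATATA (5.25%), the CCAAT box spelled by its name (33.8%), the GC box GGGCGG (32.7%), the ETS core CCGGAAGT (2.88%) and the NRF1 core GCATGCGC (2.26%). Hexim1 held the CCAAT box on the other strand, the NRF1 core, the GC box and, overlapping each other, 2 matches of the alternating TATA form. The windows of Cdk9 and Ccnt1 lay wholly in GENCODE exons and are not printed. Cdk9 held the CCAAT box and the GC box, and Ccnt1 the GC box and the ETS core, so the GC box was the only one of these words in all 3; it was in all 8 of the promoters matched, and so does not set these genes apart. A match is a description of the letters in the window.

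The populations also differed between replicates 1 and 2, the 2 independent experiments, and this moved 6 of the 10 genes. They passed in a fit over all 20 libraries, beside 71.5% of all genes. Ccnt2 was higher in replicate 2 in all 10 groups, for example 84.4 against 59.2 CPM in EV-Cre and 74.0 against 42.5 in EV-GFP, a difference of 0.58 (standard error 0.05, adjusted p = 1.88e-08). Nelfe was lower in replicate 2 by -0.33 (adjusted p = 4.89e-06), Nelfa by -0.27 (adjusted p = 1.09e-05), Supt4a by -0.27 (adjusted p = 0.000215), Cdk9 by -0.18 (adjusted p = 0.00036) and Hexim1 by -0.13 (adjusted p = 0.0264). Nelfa, Nelfe and Supt4a were lower in replicate 2 in all 10 groups. The Hexim1 call was lost in 10 of 20 fits that left out 1 library, those without a library of EV-Cre (adjusted p = 0.052), EV-GFP (0.052), MT194-GFP (up to 0.0725), MT486-GFP (up to 0.0695) or DMT-GFP (up to 0.0772). In the 10 Ad-GFP libraries alone the Hexim1 difference was -0.25 (adjusted p = 0.000175), and in the 10 Ad-Cre libraries alone it was -0.01 (adjusted p = 0.884).

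**Figure D5:**
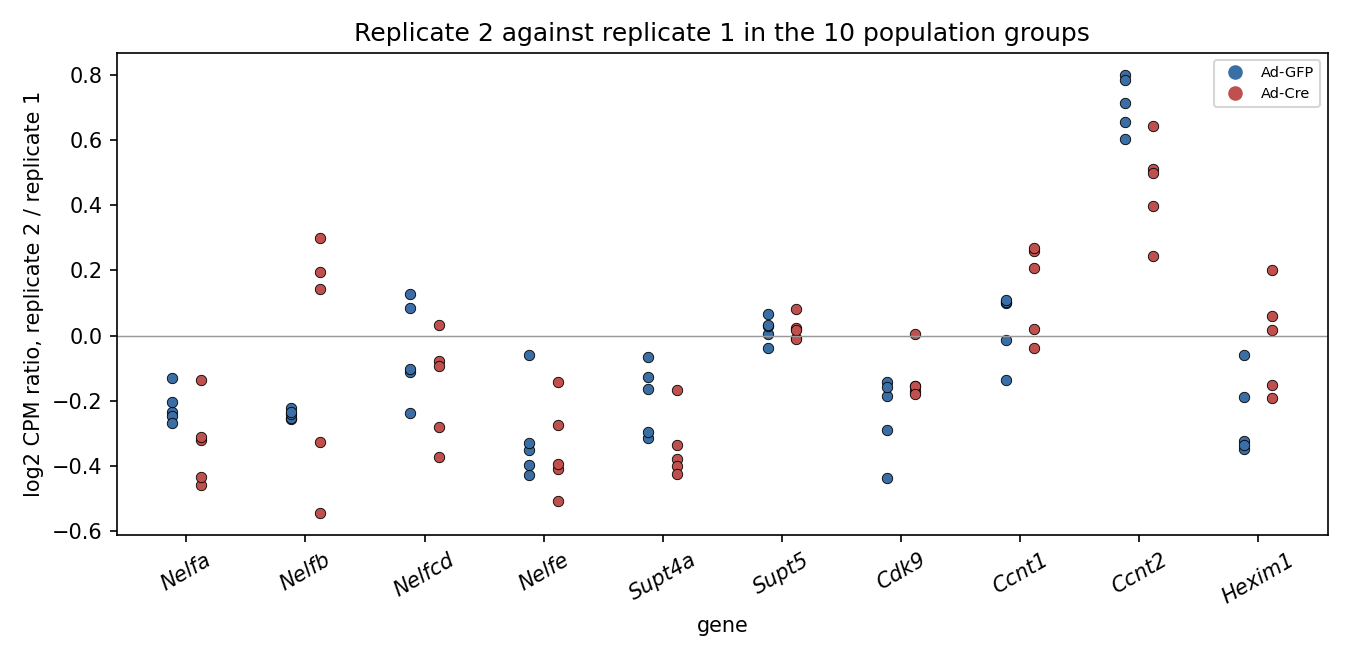
Log2 ratio of CPM in replicate 2 to replicate 1 for each of the 10 genes, 1 point per population group (blue Ad-GFP, red Ad-Cre). All 10 points of Ccnt2 lie above 0, at 0.24 to 0.80, and all 10 points of Nelfa, Nelfe and Supt4a lie below 0.

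In the clones the targeted gene was again looked at first, and it went against 1 label. Nelfb was at 10.3, 109 and 15.5 CPM in the libraries labelled WT clones 1, 2 and 3, so clones 1 and 3 lay near the EV-Cre populations in a group labelled as expressing ectopic WT NELFB. MT194 clones had 189, 216 and 147 CPM and MT486 clones 180, 158 and 135 CPM. WT(N48) clones had 241, 127 and 56.3 CPM and Δ-C60 clones 247, 208 and 218 CPM. Apart from the libraries labelled WT clones 1 and 3, the lowest clone was WT(N48) clone 3. MT486 clones 1 and 2 differed by a chi-square of 5.06 per degree of freedom, while all other pairs of replicates differed by 32.4 to 349; they were kept as 2 samples because 5.06 is above counting noise, but this does not show that they are separate clones, and the number of independent MT486 clones may be 2.

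Against the libraries labelled WT, the log2 difference of Nelfb was 2.02 (standard error 0.73) for MT194 clones, 1.81 (0.72) for MT486 clones, 1.65 (0.72) for WT(N48) clones and 2.31 (0.73) for Δ-C60 clones, and none passed (edgeR adjusted p = 0.133, 0.47, 0.211 and 0.0675). DESeq2 passed it in MT194 (adjusted p = 0.0218) and Δ-C60 (adjusted p = 0.00393). Without WT clone 2 all 4 passed, with 3.82 (adjusted p = 0.0336), 3.61 (0.0288), 3.43 (0.0158) and 4.10 (0.00936). Without the libraries labelled WT clones 1 and 3 together the differences were 0.74, 0.54, 0.36 and 1.02 (adjusted p = 0.646, 0.964, 0.894 and 0.504); this leaves 1 WT library, whose spread is taken from the other clone groups, so that a p above the threshold tells little.

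Of the other 9 genes, Hexim1 was the one whose levels in the 3 libraries labelled WT did not overlap those of the other 12 clones, though no difference passed with edgeR. It was at 121, 107 and 108 CPM in the libraries labelled WT. MT194 clones had 72.5, 81.3 and 62.8 CPM and MT486 clones 78.2, 81.5 and 84.1 CPM. WT(N48) clones had 55.3, 71.0 and 80.6 CPM and Δ-C60 clones 86.6, 106 and 56.4 CPM. All 3 libraries labelled WT, with high and low Nelfb alike, were above the other 12, though Δ-C60 clone 2 at 106 CPM came close. The differences from the libraries labelled WT were -0.63 (standard error 0.21), -0.46 (0.21), -0.69 (0.21) and -0.43 (0.21) for the same 4 groups in that order. None of these differences passed (edgeR adjusted p = 0.11, 0.549, 0.0925 and 0.208), while DESeq2 passed WT(N48) (adjusted p = 0.0301). Without the libraries labelled WT clones 1 and 3 they were -0.57, -0.39, -0.64 and -0.38 (adjusted p = 0.508, 0.952, 0.622 and 0.661), again with 1 WT library. The ratio of Hexim1 to Cdk9 was 1.75 ± 0.0682 (SD, n = 3) in the libraries labelled WT, 1.32 ± 0.0603 for MT486, 1.14 ± 0.413 for Δ-C60, 1.12 ± 0.350 for WT(N48) and 1.05 ± 0.347 for MT194.

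None of the 10 genes passed in any of the 8 clone comparisons with edgeR. Those between the pLenti clones (WT, MT194 and MT486) and the pBabe clones (WT(N48) and Δ-C60) cannot tell construct from vector. Against the libraries labelled WT, the share of all genes called was 2.91% for MT194, 0% for MT486, 2.10% for WT(N48) and 8.38% for Δ-C60. Of the 10 genes, 2, 3, 2 and 2 had an unadjusted p under 0.05, beside 2796, 1176, 2775 and 3587 of all 13223. DESeq2 passed 1, 0, 1 and 1 of the 10, beside 1219 of 12651, 159 of 12907, 1201 of 12651 and 2066 of 13163 genes. Against WT(N48), the share of all genes called was 5.86% in MT194, 0.287% in MT486 and 0% in Δ-C60, and it was 0.348% for MT486 against MT194. In these 4 comparisons none of the 10 had an unadjusted p under 0.05, beside 3407, 1991, 1540 and 2473 of all genes. DESeq2 passed none of the 10, beside 1799, 591, 223 and 815. The 2 comparisons with 0% called were MT486 against the libraries labelled WT and Δ-C60 against WT(N48). In these, 1176 and 1540 genes had an unadjusted p under 0.05 and DESeq2 called 159 and 223. Nelfcd lay at 67.5 to 87.2 CPM in the libraries labelled WT and at 49.3, 49.8 and 66.7 in MT486, a difference of -0.50 (standard error 0.22, adjusted p = 0.516). Cdk9 lay between 74.1 and 111 CPM, Ccnt1 between 24.2 and 55.4, Ccnt2 between 25.8 and 42.4 and Supt5 between 136 and 261 CPM, with group ranges that overlapped their neighbours.

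Other genes of the pathway were taken from a list of 34, of which 33 were in the files and tested: 7SK proteins, recruiters of P-TEFb and the super elongation complex, the PAF complex with Supt6, other partners in pausing, and other elongation kinases. With Ad-Cre in EV, 4 rose and none fell, a share near the 13.0% of all genes called, with a median log2 change of 0.19 over the 33 against 0.00 over all genes and -0.01 over the 10. Eaf1, a partner of the ELL elongation factors, rose by 1.03 (standard error 0.22, adjusted p = 0.00846), from 75.4 and 61.0 CPM to 152 and 127. Brd2, a bromodomain protein that binds acetylated histones, rose by 0.80 (0.20, adjusted p = 0.0208), and Jmjd6 by 0.64 (0.11, adjusted p = 0.00198). The fourth was Ncbp1, the large subunit of the nuclear cap-binding complex, with 0.40 (adjusted p = 0.0388), named because the count was so small.

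In DMT 3 of the 33 rose and 1 fell, near the 10.8% of all genes called. Hexim2, the paralog of Hexim1, fell by 1.00 in log2 units (standard error 0.22, adjusted p = 0.0116), from 8.32 and 5.90 CPM to 4.01 and 3.07, while Brd2 (0.76, adjusted p = 0.0295) and Jmjd6 (0.52, adjusted p = 0.00852) rose. In MT194 only Mepce, the enzyme that caps 7SK RNA, passed, with -0.46 (standard error 0.10, adjusted p = 0.0183), beside 4.49% of all genes, and none passed in WT or MT486, beside 0.0217% and 2.54%. Averaged over the constructs 7 rose and 3 fell, a share below the 34.3% of all genes called, led by Hexim2 with -0.61 (0.10, adjusted p = 0.000385), Eaf1 with 0.48 (adjusted p = 0.002) and Brd2 with 0.46 (adjusted p = 0.00158). In WT-Cre against EV-Cre, Eaf1 (-0.89, adjusted p = 0.0279), Brd2 (-0.75, adjusted p = 0.0406) and Jmjd6 (-0.59, adjusted p = 0.00701) were the 3 that passed, all lower, near the 8.00% of all genes called. Without the replicate term none of the 33 passed for MT194, MT486 or DMT against EV-Cre, beside 0.225%, 0.362% and 0.00724% of all genes. In that fit none passed for any construct against EV-GFP, where at most 0.00724% of all genes were called. Nor did any pass for a difference of Cre effects, beside 0.681% of all genes in WT and 0.00724% in each mutant.

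The replicate term, which takes up the pairing of the populations, moved these counts by over 1.5 times. For Ad-Cre against Ad-GFP, 16 of the 33 passed in EV beside 43.0% of all genes, 9 in MT194 beside 26.7%, 5 in MT486 beside 23.2%, 12 in DMT beside 40.7% and none in WT beside 5.61%, and 22 in the mean effect beside 61.0%. Against EV-Cre, 12 passed for WT (4 higher, 8 lower, beside 40.1%), 6 for MT194 (beside 13.1%), 5 for MT486 (beside 17.9%) and 1 for DMT (beside 0.413%). That 1 gene was Eaf1, which was lower than in EV-Cre by -0.89 in WT (adjusted p = 3.35e-07), -0.84 in MT194 (9.83e-06), -0.59 in MT486 (0.000147) and -0.42 in DMT (0.0233). The response to Cre differed from that in EV for 6 of the 33 in WT beside 17.3% of all genes and for 1 in MT194 beside 0.992%. It differed for 3 in MT486 beside 2.96% and for none in DMT beside 0.00724%. Eaf1 was among them in WT (-0.94, standard error 0.11, adjusted p = 4.09e-05), MT194 (-0.80, 0.11, adjusted p = 0.00285) and MT486 (-0.65, 0.11, adjusted p = 0.00571), and the other 2 in MT486 were Brd2 (-0.52, adjusted p = 0.0271) and Jmjd6 (-0.54, adjusted p = 0.0204). Against EV-GFP none passed with the term either, beside 0%, 0.130%, 0.159% and 0.0580% of all genes for WT, MT194, MT486 and DMT.

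Between replicates 26 of the 33 passed, 3 higher and 23 lower in replicate 2, beside 71.5% of all genes, led by Ell3 (0.68, adjusted p = 0.000122), Polr2m (-0.54, adjusted p = 8.68e-09) and Tcea1 (-0.51, adjusted p = 3.71e-08). In the clones, Mllt3 was higher in MT194 (1.23, adjusted p = 0.0488) and in Δ-C60 (1.14, adjusted p = 0.0374) than in the libraries labelled WT. Aff1, a scaffold of the super elongation complex, was higher in Δ-C60 (1.18, adjusted p = 0.00738), Cdk12, a kinase of the polymerase, was lower in MT194 (-0.62, adjusted p = 0.0487), and Cdk13 was lower in MT194 than in WT(N48) (-0.95, adjusted p = 0.0137). Against the libraries labelled WT the calls numbered 2 of 33 for MT194 and 2 for Δ-C60, beside 2.91% and 8.38% of all genes. Comparisons of the pBabe clones, WT(N48) and Δ-C60, with the pLenti clones cannot tell construct from vector, and WT clones 1 and 3 had low Nelfb. Against WT(N48), in the same vector, none of the 33 passed for Δ-C60, beside 0% of all genes. For MT194 against WT(N48) there was 1, beside 5.86%. None of the 33 passed in the other 5 clone comparisons, where at most 2.10% of all genes were called.

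The gene most like each of the 10 was found by Pearson's r of log2 CPM over the 20 populations among the 9440 genes that averaged 10 CPM or more; the libraries share 2 experiments and 2 viruses, and the values are a description. For Nelfb they were Ndufb3 (r = 0.742), Map4 (r = 0.705) and Rnpep (r = 0.672), the weakest matches of all. Closer matches were Map2k1 for Cdk9 (r = 0.976), Ddx26b for Ccnt2 (r = 0.978), Wbp11 for Nelfa (r = 0.976), Cdc123 for Nelfe (r = 0.963) and Mvp for Hexim1 (r = 0.933). Those of Ccnt1, Nelfcd, Supt4a and Supt5 were Prdm2 (r = 0.928), Dtymk (r = 0.924), Fam149b (r = 0.910) and Tomm40 (r = 0.788).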

How the data were processed

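Total RNA of 35 libraries had been made into stranded poly(A) libraries and sequenced as 50 bp single reads. Per the submitters' processing notes and methods, Bowtie2 placed the reads on mm10, alignments under a mapping quality of 30 were dropped, and HTSeq gave the counts per gene; the counts the authors deposited were not normalized, and whether strand was used in counting is not given in the sources used here. Bowtie2 does not split reads over introns, so reads across splice junctions may be missing, and a gene with many short exons loses more of them. Reads on no gene made up 11.7% to 21.3% of the populations' reads and 9.14% to 12.0% of the clones', and these were left out. Exons of the 10 genes shared at most 7.59% of their length with another annotated gene, for Ccnt1 with the antisense 9330020H09Rik.

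From the counts, CPM after TMM scaling and quasi-likelihood tests came from edgeR 4.0.16 (R 4.3.3), in separate fits of the populations (13805 genes) and the clones (13223 genes) after filterByExpr, with 1 mean per group and p-values adjusted by Benjamini-Hochberg over all genes tested. A gene passed at an adjusted p under 0.05, and the standard error was the log2 change divided by the square root of F. Intervals are 1.96 standard errors each way. Replicates of the populations are 2 independent experiments: same-numbered libraries deviated together in 45 of 45 pairs (correlation 0.42 to 0.73), so a second fit that includes this number is given where it changed a call or count. Clones are single isolates. Alternatives were DESeq2 1.42.0, its size factors in edgeR, no filter, the compared groups alone, log2 thresholds of 0.5 and 1, longest transcripts for lengths, and each library left out. Exon lengths, coordinates and coding sequences come from GENCODE M21 and promoters from RefSeq (GRCm38.p6), where 8 of the 10 genes matched; mutant stretches come from the study's primer list. Genes of the pathway list were named as up to 3 passing with the largest change per comparison. The members, lists and tests were chosen with earlier results of these data known. The test was also run on simulated counts, whose outcome is not given here and is not relied on.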

Additional observations from a re-analysis of the deposited data

Results flagged for a closer look

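Nelfb responded to Ad-Cre differently in cells with an ectopic construct than in EV cells by the test of the difference itself (edgeR interaction, 2 replicates per group). The difference on the log2 scale was 2.27 in WT (adjusted p = 0.00574), 3.38 in MT194 (0.000449), 3.18 in MT486 (0.00089) and 4.15 in DMT (4.26e-05). With the spread taken from the compared groups alone only DMT passed (adjusted p = 0.0421), and WT (2.27, adjusted p = 0.0679), MT194 (3.38, 0.172) and MT486 (3.17, 0.247) did not. No other gene of the 10 passed in the fit over all populations without a replicate term. There 0.681% of all genes were called for WT and 0.00724% for each mutant. With the replicate term, which pairs the populations, Cdk9, Ccnt1 and Ccnt2 also passed for WT (adjusted p = 0.0097, 0.0202 and 0.0099), beside 17.3% of all genes. The counts hold the ectopic cDNA together with the floxed allele, and Ad-Cre deletes only the latter. A positive difference from EV was therefore set by the design, even where the construct itself did not change.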

How the results depend on the processing

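Counts of the 10 genes that passed changed as follows. With the replicate term, which pairs the populations, they became 5 in EV, 3 in MT194, 2 in MT486 and 4 in DMT for Ad-Cre against Ad-GFP, 6 in WT, 2 in MT194 and 4 in MT486 against EV-Cre, 1 in MT486 against EV-GFP and 4 for the difference of Cre effects between WT and EV; it changed no other count by over 1.5 times. With DESeq2 they became 3 in DMT, adding Cdk9 (adjusted p = 0.0385), and 2 in MT194 for Ad-Cre against Ad-GFP, beside 2203 and 1128 of 13805 genes. Against EV-GFP they became 1 in WT and 1 in MT486, beside 1 of 13805 and 10 of 13002 genes. They became 1 each for MT194, WT(N48) and Δ-C60 against the libraries labelled WT clones, beside 1219 of 12651, 1201 of 12651 and 2066 of 13163 genes. In the compared groups alone they became 1 in EV and 1 in DMT for Ad-Cre against Ad-GFP, 1 in WT and 0 in MT194 and DMT against EV-Cre, and 0 for the differences of Cre effects in WT, MT194 and MT486, Nelfb being the call lost in MT194 and DMT against EV-Cre and in these 3 differences, with fewer samples to estimate the spread. Without a filter they became 1 in DMT, 1 in WT against EV-Cre and 2 in EV, where the Cdk9 call was lost. A threshold of 1 on the log2 change left 1 in EV, 1 in DMT, 1 in WT against EV-Cre, 0 in the mean Cre effect and 0 between replicates, and a threshold of 0.5 left 0 and 1 in the last 2. With 1 library left out, counts were 1 to 2 in EV, 1 to 1 in DMT, 1 to 2 in WT against EV-Cre, and 0 to 1 in each of the 4 comparisons with the WT clones. With 1 library left out, the effect of Ad-Cre in EV ran from -0.30 to 0.02 for Nelfa and from -0.36 to 0.02 for Supt4a. Both were above 0 without EV-Cre replicate 2. For Ccnt2 it ran from -0.04 to 0.76, below 0 without EV-GFP replicate 1. None of the 3 had passed without the replicate term, and Ccnt2 passed with it (0.33, adjusted p = 0.0239). These left-out fits had no replicate term. Nelfa and Supt4a were lower and Ccnt2 higher in replicate 2 in all 10 groups. Within same-numbered pairs in EV, Nelfa changed by -0.10 and -0.17, Supt4a by -0.05 and -0.29 and Ccnt2 by 0.48 and 0.19. The log2 change of Nelfb in EV stayed between -2.97 and -2.42 with 1 library left out and passed in each fit. DESeq2's size factors in edgeR changed no count. The clones' replicate numbers do not pair them (3 of 30 correlations over 0.1), and a replicate term passed none of the 10 genes there. The cause of these shifts was not tested.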
